A study of Mus musculus with 8 samples.

Results

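The Sox genes are transcription factors that bind DNA through an HMG box, and 9 of them were examined here in *Bapx1*-EGFP positive spleen cells, with *Sox9* at the centre. They are the SoxE genes *Sox9*, *Sox8* and *Sox10*, the SoxD genes *Sox5* and *Sox6*, the SoxC genes *Sox4*, *Sox11* and *Sox12*, and the SoxF gene *Sox7*. Members were all probes whose array annotation carries 1 of these symbols, which gave 29 of the 45281 probes on the array. Of these, 20 were detected on at least 4 of the 8 arrays and entered the test with 19841 probes in all. Expression was measured on Illumina MouseWG-6 BeadChips in sorted cells of the E12.5 mouse spleen (strain C57BL/6J;129), with 4 wildtype and 4 null samples by their *Bapx1* labels. In both genotypes EGFP was driven by the *Bapx1* locus itself. The wildtype allele (tm2.Tlu) holds an IRES and EGFP in the 3' UTR, so that BAPX1 is still made, and is written by the paper as heterozygous, and the null allele (tm4.Tlu) carries EGFP in place of the sequence just behind the start codon and is written as homozygous. Genotype, reporter allele, reporter copies and the cells that pass the sort change together and cannot be told apart.

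*Sox9* drives the formation of cartilage, where *Sox5* and *Sox6* act with it on matrix genes such as *Col2a1*, and it is also expressed in the mesenchyme of the gut and in the progenitors of the pancreas. *Sox8* and *Sox10* are its closest relatives, and *Sox10* is best known from neural crest cells and glia. The SoxC genes are widely expressed in embryonic mesenchyme and neuronal progenitors, and *Sox7* belongs with *Sox17* and *Sox18* to a subgroup known from endothelium. *Bapx1*, whose current symbol is *Nkx3-2*, encodes an NK homeodomain factor that the spleen needs in order to form. An autoregulatory loop between it and *Sox9* is known from chondrocytes in vitro. In the E12.5 vertebral column the paper detected neither gene as a target of the other, but it placed *Sox9* downstream of *Bapx1* in spleen and gut. The question addressed was which Sox genes differ between *Bapx1* null and wildtype cells of the splenic primordium.

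Between 42.0 and 44.5% of probes were above background on each array, and the mean signal was 361.7 to 472.5 on wildtype and 302.4 to 398.1 on null arrays. Both probes of the targeted gene were above background on no wildtype array and on all 4 null arrays (at least 3.79-fold and 2.99-fold higher). Their positions relative to the removed sequence are not known here, so they do not check the genotype labels. The spleen mesenchyme regulators *Nkx2-5*, *Nkx2-3*, *Tcf21* and *Barx1* were detected on all 8 arrays and *Tlx1* on none. *Nkx2-5* (-2.31, adjusted p = 9.0e-05, limma) and *Nkx2-3* (-0.70, adjusted p = 9.7e-04, with -0.23 and adjusted p = 0.387 at its other probe) were lower in null, *Barx1* was higher (1.47, adjusted p = 2.7e-04, and 1.04 at its other probe), and *Tcf21* differed by 0.05. Of 5 neuronal genes tested, *Stmn2* (2.46), *Map2* (1.26) and *Dcx* (0.50) were higher in null, although the other *Dcx* probe did not pass the test (0.32, adjusted p = 0.157, limma). *Elavl4* (-0.10) and *Nefm* (0.19) did not pass it, and *Tubb3* was not detected on any array. The mean of the 5 genes relative to wildtype was -0.33 to 0.15 on wildtype and 0.68 to 1.06 on null arrays. Of 6 mesothelial genes tested, *Aldh1a2* (1.57), *Podxl* (0.79) and *Lrrn4* (0.69) were higher. *Upk3b* (0.12), *Upk1b* (0.07) and *Gpm6a* (-0.14) did not pass the test. Over all 10766 genes 25.7% were called higher. Whether neuronal or mesothelial cells had a part in the Sox differences was not tested. Null replicates 1 to 3 stood apart from null replicate 4 in epithelial, endothelial and erythroid markers, and this is described below where a Sox gene moved with it. *Xist*, which is transcribed from the inactive X chromosome in females, also lay lower at its brightest probe on all 4 null arrays (9.18 to 9.91) than on the wildtype arrays (10.76 to 12.44). That probe is the *Xist* covariate used below. Its other kept probes differed by -2.12, -1.29 and -0.44, the last not passing the test (adjusted p = 0.428, limma). The other sex specific genes tested, *Eif2s3y* (1.03, adjusted p = 0.069), *Kdm5d* (0.77, adjusted p = 0.135) and *Uty* (0.11, adjusted p = 0.564), did not pass it.

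Of the 20 probes tested, 8 passed an adjusted p of 0.05 (limma), 4 lower and 4 higher in null. Over all 19841 probes 41.9% passed, 20.3% lower and 21.6% higher, so the number of Sox probes called was near that of the array as a whole. Sets of 4 arrays that did not overlap between genotypes were found for 6 of the 20 probes (3 lower, 3 higher), where 38.3% of all probes showed this (18.2% lower, 20.1% higher). The median log2 difference was 0.05 over the Sox probes and 0.04 over all probes. What set the Sox genes apart from one another was direction and size. *Sox9* and *Sox6* were lower in null, *Sox10* and a pair of *Sox5* probes were higher, probes of *Sox11* disagreed, and no probe of *Sox8*, *Sox4*, *Sox12* or *Sox7* passed the test.

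**Figure D1:**
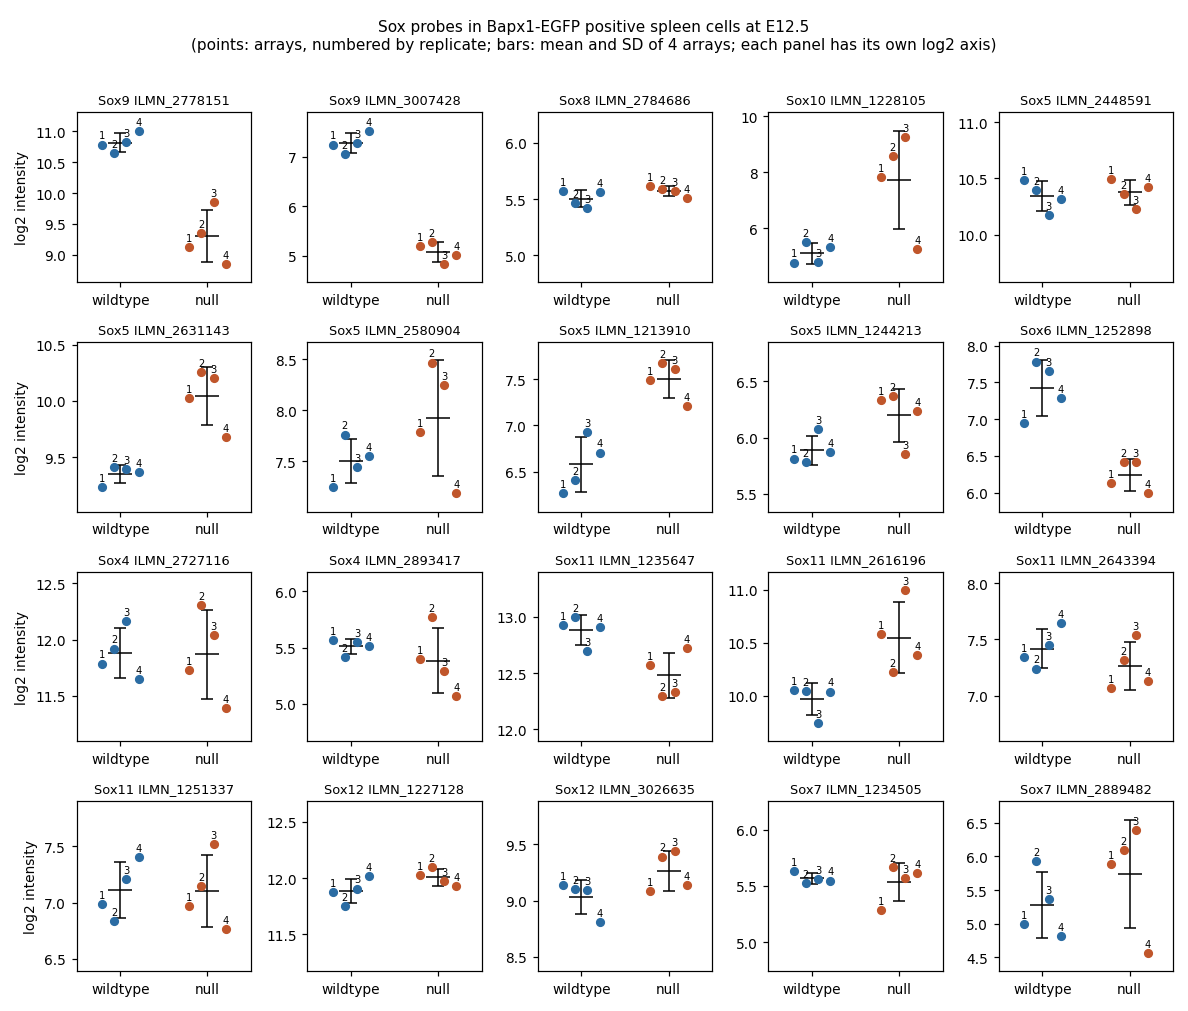
The log2 intensity of the 20 Sox probes that were detected on at least 4 arrays is plotted for each wildtype (blue) and null (orange) array, numbered by replicate, with the mean and SD of 4 arrays and a separate axis in each panel. Both *Sox9* probes and the *Sox6* probe were lower on every null array than on any wildtype array, whereas *Sox10* was high on null replicates 1 to 3 and at the wildtype level on null replicate 4.

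**Figure D2:**
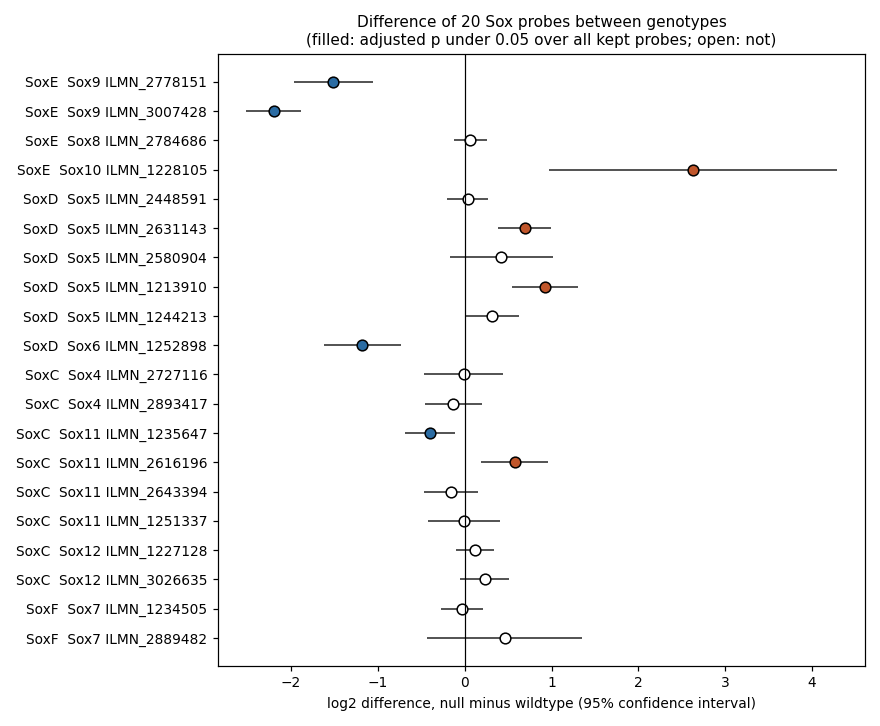
The log2 difference between null and wildtype is plotted with its 95% confidence interval for the same 20 probes, ordered by subgroup, with filled points where the adjusted p over all 19841 probes was under 0.05. The differences ran from -2.20 (*Sox9* ILMN_3007428) to 2.63 (*Sox10*), and the interval was widest for *Sox10*.

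*Sox9* was lower in null cells at both of its probes. At ILMN_2778151 the log2 intensity was 10.79, 10.64, 10.83 and 11.01 on wildtype arrays 1 to 4 and 9.13, 9.36, 9.86 and 8.85 on null arrays 1 to 4. The deposited signals behind these values were 1466 to 2157 on wildtype and 406 to 791 on null arrays. All null arrays lay below all wildtype arrays, and the null arrays were spread more widely (SD 0.42 against 0.15, n = 4 each), with replicate 3 closest to wildtype. The difference was -1.52 with a standard error of 0.20, a level 2.86-fold lower in null (adjusted p = 7.0e-04, limma). Because the sorted cells were measured in bulk, fewer cells with *Sox9* and less *Sox9* RNA per cell cannot be told apart.

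The other *Sox9* probe, ILMN_3007428, gave 7.25, 7.05, 7.29 and 7.53 on the wildtype arrays and 5.19, 5.28, 4.84 and 5.01 on the null arrays. It was detected on all 4 wildtype arrays but only on null replicates 1 and 2, so the null level was at the edge of background. Its difference was -2.20 ± 0.13 (SE, adjusted p = 1.7e-05, limma). So near background the size depends on how background is handled, and the difference was -1.48 with an offset of 50, -3.08 without background correction and -3.10 in the deposited value table, with the call kept in each. Of all probes tested, 1.86% had a lower difference than the first *Sox9* probe, and 5.56% passed the test at over 2-fold lower in null. Leaving out any 1 array kept both calls, with differences of -1.70 to -1.37 and -2.28 to -2.12. With *Xist* as a covariate the difference at ILMN_2778151 was -1.78 but was no longer called (adjusted p = 0.129), and in the chain of scaling, filter and test given in the methods it was -0.94 (adjusted p = 0.158), whereas ILMN_3007428 kept its call in both. The mean of 24 splicing regulators, relative to wildtype, was also lower on all null arrays (-0.76 to -0.39) than on the wildtype arrays (-0.21 to 0.10) and correlated with the 2 *Sox9* probes at r = 0.75 and 0.90. With that mean as a covariate the *Sox9* differences were -2.27 (adjusted p = 0.011, limma) and -2.11 (adjusted p = 0.008). Because that mean did not overlap between the genotypes, the fit cannot divide its part from that of genotype.

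*Sox9* also fell relative to most of the other Sox genes within the same array. A log2 shift of a whole array cancels in this measure where both probes are well above background. It need not cancel for *Sox8*, *Sox7* and wildtype *Sox10*, which were near background. The same *Sox9* values enter every comparison, so the comparisons restate the fall of *Sox9* and are not separate results. The difference between *Sox9* (ILMN_2778151) and the brightest detected probe of each other gene was taken on each array and compared between genotypes over 8 genes. Its change from wildtype to null was -1.58 against *Sox8*, and the arrays of the genotypes did not overlap. The corresponding change was -4.14 against *Sox10*, -1.55 against *Sox5*, -1.50 against *Sox4*, -1.11 against *Sox11*, -1.63 against *Sox12* and -1.48 against *Sox7*. Each of these 7 comparisons reached the smallest p that an exact two-sided permutation test of 4 against 4 arrays allows (p = 0.0286, adjusted p = 0.0327). Against *Sox6* the change was only -0.34 (p = 0.257, exact permutation test), and the arrays of the 2 genotypes overlapped. With median absolute deviation scaling the changes against *Sox8* (-1.11, adjusted p = 0.0762, exact permutation test) and *Sox7* (-0.94, adjusted p = 0.0980) were no longer past the threshold.

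**Figure D3:**
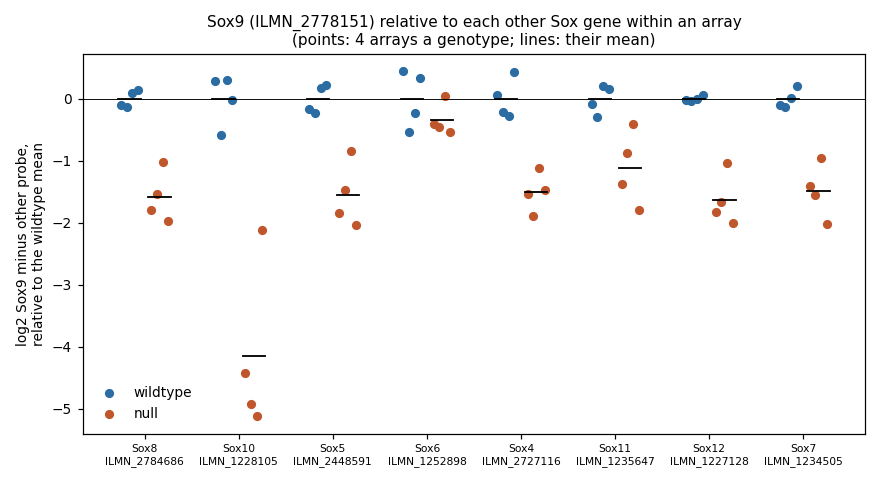
For each other Sox gene, the log2 intensity of *Sox9* minus that of the gene's brightest detected probe is plotted for every array relative to the mean of the 4 wildtype arrays, with lines at the mean of each genotype. The null arrays (orange) lay below the wildtype arrays (blue) for 7 genes, and for *Sox6* they overlapped (change -0.34).

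The genes whose log2 values over the 8 arrays were most like those of *Sox9* ILMN_2778151 were *P2ry1*, a purinergic receptor (Pearson r = 0.991), *Rgs2*, a regulator of G protein signalling (0.989), *Satb1*, a chromatin organizer (0.988), the zinc finger factor *Sall4* (0.987) and the proteoglycan *Gpc1* (0.984). All 5 were lower in null. *Sall4* differed by -1.70 and *Rgs2* by -0.97, and the other three by -0.57 to -0.47. The most opposite were the heparan sulfate sulfotransferase *Hs3st1* (r = -0.995), the sodium pump subunit *Atp1b1* (-0.992), the helix-loop-helix factors *Bhlha9* (-0.990) and *Sim2* (-0.985), and the cytoskeletal linker *Dst* (-0.988). These 5 were higher in null, by 0.70 for *Dst* to 2.57 for *Sim2*. The 8 arrays share the genotype difference, and of 16249 probes compared 263 had an r over 0.9 and 591 an r under -0.9. These values are a description with no test.

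*Sox8* did not differ detectably. Its probe ILMN_2784686 gave 5.57, 5.47, 5.42 and 5.56 on the wildtype and 5.61, 5.58, 5.57 and 5.51 on the null arrays. It was detected on all 8 arrays just above background, and the genotypes overlapped. The difference was 0.07 with a 95% confidence interval of -0.12 to 0.25 (adjusted p = 0.535, limma). Its other probe, ILMN_1259039, was detected on 1 null array only and was not tested.

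*Sox10* was higher in 3 of 4 null samples. Its only probe, ILMN_1228105, gave 4.78, 5.51, 4.81 and 5.32 on the wildtype arrays and 7.84, 8.57, 9.27 and 5.26 on the null arrays. It was detected on wildtype replicates 2 and 4 and on all 4 null arrays, and null replicate 4 lay within the wildtype range. The deposited signals were 9.4 to 28.5 on wildtype arrays and 156, 374, 515 and 21.9 on null arrays. The difference was 2.63 ± 0.73 (SE, adjusted p = 0.019, limma), where 3.53% of all probes passed the test at over 2-fold higher. With wildtype replicates 1 and 3 under the detection limit its size too depends on the background, and it was 1.96 with an offset of 50, 3.53 without background correction and 3.52 in the value table. This call did not hold when wildtype replicate 1 (2.52, adjusted p = 0.051) or null replicate 2 (2.35, adjusted p = 0.055) was left out, nor when all 45281 probes were tested (adjusted p = 0.055), with *Xist* as a covariate (2.26, adjusted p = 0.844) or in the methods' chain (3.73, adjusted p = 0.128). The difference was 3.45 without null replicate 4, and -0.10 (adjusted p = 0.981) when the mean of the splicing regulators entered as a covariate.

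The spread of *Sox10* over the null arrays followed markers of cell types outside the mesenchyme. Of 14 epithelial genes listed, 4 were tested, and *Cdh1* (E-cadherin), *Krt8* and *Krt18* (keratins of simple epithelia) were higher in null by 1.32, 1.64 and 1.63, while *Cpa1* differed by 0.24 (adjusted p = 0.301). The mean of these 4 genes, relative to wildtype, was -0.18 to 0.19 on wildtype arrays and 1.06, 1.49, 1.88 and 0.39 on null arrays 1 to 4. *Pdx1* and *Ptf1a*, which define pancreatic progenitors, were detected on at most 1 array. Over the 8 arrays *Sox10* correlated with this mean at r = 0.97. The gene most like *Sox10* was *Esrp1*, a splicing regulator of epithelia (r = 0.994, 2.18 higher in null, adjusted p = 0.014), a gene looked up after the values of *Sox10* had been seen. With the epithelial mean as a covariate, a setting chosen after seeing the data, the *Sox10* difference was -0.47 (adjusted p = 0.607, limma). Both *Sox9* differences remained called (-2.18 and -2.06). The epithelial mean itself did not overlap between the genotypes, so this fit cannot divide a difference by genotype from one that goes with these markers.

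Endothelial and erythroid markers had the same pattern over the null arrays. Of 12 endothelial genes 9 were tested, and their mean relative to wildtype was -0.41 to 0.81 on wildtype arrays and 0.76, 1.29, 1.65 and -0.62 on null arrays 1 to 4. At their brightest probes none of the 9 was called higher (limma, 2 at an unadjusted p under 0.05), another probe of *Egfl7* was called (0.67, adjusted p = 0.034), *Tek* was lower (-1.41), and the receptor genes *Kdr* and *Tie1* and the factor *Erg* were not detected on any array. The mean of 9 erythroid genes was -0.71 to 0.82 on wildtype arrays and 1.54, 2.06, 2.50 and -0.86 on null arrays 1 to 4, with no gene called (4 at an unadjusted p under 0.05) and *Gata1* not detected. *Sox10* differed by 1.53 (adjusted p = 0.013) with the endothelial mean as a covariate and by 1.45 (adjusted p = 0.064) with the erythroid mean, both chosen after seeing the data.

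Of the 13 neural crest genes listed 3 were tested, and none of them was higher in null. *Fabp7* (-0.75, adjusted p = 0.007) and *Ednrb* (-0.31, adjusted p = 0.046) were lower in null, and the difference of *Dct* was -0.26 (adjusted p = 0.137). *Erbb3* and *Foxd3*, which define glial precursors and early neural crest, were not detected on any array. Which cells carried *Sox10* was not tested.

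**Figure D4:**
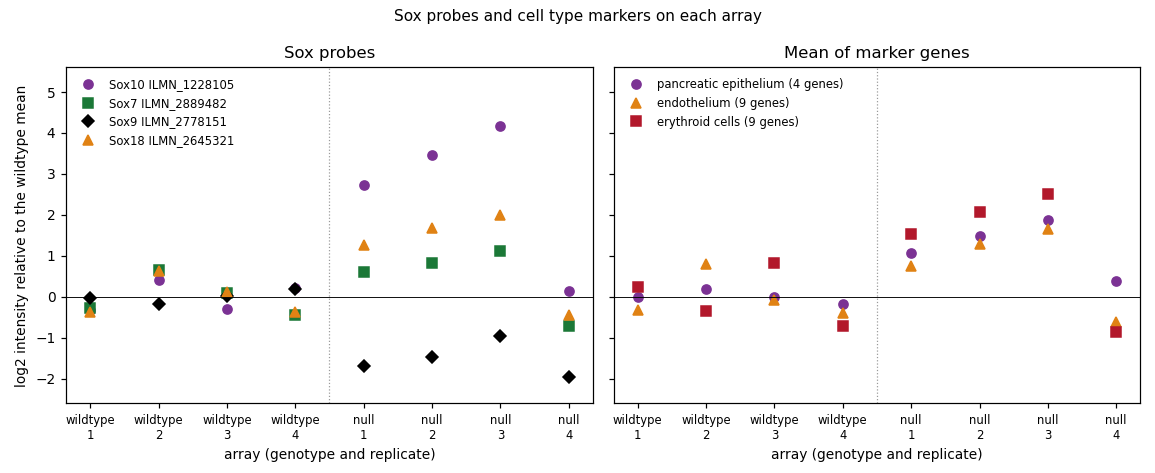
The left panel plots the log2 intensity of *Sox10*, *Sox18*, 1 *Sox7* probe and *Sox9* on each array relative to the mean of the wildtype arrays, and the right panel the mean of the epithelial, endothelial and erythroid marker genes on the same scale. *Sox10*, *Sox18* and *Sox7* were above the wildtype mean on null replicates 1 to 3 along with all 3 marker means, *Sox7*, *Sox18* and the endothelial and erythroid means were below it on null replicate 4, and *Sox9* was below it on all 4 null arrays.

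*Sox6* fell with *Sox9*, but at a single probe. ILMN_1252898 gave 6.95, 7.79, 7.66 and 7.29 on the wildtype and 6.14, 6.42, 6.42 and 5.99 on the null arrays, and it was detected on all 8. No null array reached the lowest wildtype array, which was replicate 1. The difference was -1.18 ± 0.19 (SE), or 2.27-fold lower in null (adjusted p = 0.002, limma), and it stayed called without any 1 array (-1.34 to -1.06). The probe is annotated to a cDNA clone. The 3 probes annotated to the reference transcript of *Sox6* were not above background on any array, and ILMN_2566142, annotated to another clone, was detected only on null replicates 2 and 3. The call was lost with *Xist* as a covariate (-1.36, adjusted p = 0.263) and in the methods' chain (-1.20, adjusted p = 0.102).

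*Sox5* did not follow *Sox6*. Its probe ILMN_2631143 gave 9.24, 9.41, 9.39 and 9.36 on the wildtype and 10.02, 10.25, 10.20 and 9.68 on the null arrays, and its probe ILMN_1213910 gave 6.26, 6.41, 6.93 and 6.71 on the wildtype and 7.50, 7.67, 7.61 and 7.21 on the null arrays. At both probes every null array lay above every wildtype array, and null replicate 4 was the lowest of the null arrays. The differences were 0.69 ± 0.13 (adjusted p = 0.004, limma) and 0.92 ± 0.16 (adjusted p = 0.003), or 1.61-fold and 1.89-fold higher. Neither call held with *Xist* as a covariate (0.62, adjusted p = 0.594, and 0.65, adjusted p = 0.694) or in the methods' chain (adjusted p = 0.091 and 0.070). Both probes are annotated to the reference transcript of *Sox5*.

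The other probes of *Sox5* did not pass the test. ILMN_2448591, the brightest, gave 10.17 to 10.48 on wildtype and 10.23 to 10.49 on null arrays and differed by 0.03 (95% confidence interval -0.19 to 0.26, adjusted p = 0.806). ILMN_2580904 differed by 0.42 (adjusted p = 0.211) and ILMN_1244213, annotated to the reference transcript, by 0.31 (adjusted p = 0.083). Without null replicate 4 the first of these was 0.67 and called (adjusted p = 0.015), and without null replicate 3 the second was 0.43 and called (adjusted p = 0.016). ILMN_2610223 was not detected on any array. The 2 called *Sox5* probes correlated with the epithelial mean at r = 0.96 and 0.85, and with that mean as a covariate their differences were 0.24 (adjusted p = 0.402) and 0.63 (adjusted p = 0.209). The same 2 probes correlated with the splicing mean at r = -0.95 each. With the splicing mean as a covariate their differences were 0.19 (adjusted p = 0.709) and 0.25 (adjusted p = 0.685).

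Promoter windows were read for every Sox gene that had one. The reasons were that called probes of *Sox5* and *Sox6* moved in opposite directions and that the targeted gene encodes a DNA-binding factor. The motif searched was TAAGTG, the core recognized by NK homeodomain proteins, on both strands. The windows were of 300 bases, from 250 before to 50 after each annotated start (RefSeq, GRCm38.p6). The paper gives the motif of Bapx1 as T(G/A)AGTG, and the form with G in place of the first A was not searched. *Sox9*, *Sox10* and *Sox7* had no window and were not searched. Of the 9 Sox genes 6 had at least 1 window, 11 windows in all. The motif was in 3 of these windows, 1 of *Sox5* and 2 of the 6 windows of *Sox6*. Over all 32851 windows 9.2% held it. The stretches follow with the motif in capitals, each read 5' to 3' along the strand of the gene.
*Sox5*, chr6:143947118-143947143, minus strand, motif 27 bases before the start: tgtcacagacTAAGTGacttaggcaa
*Sox6*, chr7:116038964-116038989, minus strand, motif 235 bases before the start: ttcgtttcttTAAGTGcgatagattt
*Sox6*, chr7:115846272-115846297, minus strand, motif 147 bases before the start: gcagctgactTAAGTGttgaaccatc
The same letters thus lay upstream of a gene with probes higher in null and of a gene with a probe lower in null. A match is a description of the letters and not a binding site, and no match says only that the letters are not in that window.

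No probe of the SoxC genes *Sox4* and *Sox12* passed the test, but 1 probe of each did under 1 other setting. *Sox4* at ILMN_2727116 gave 11.79, 11.92, 12.16 and 11.65 on the wildtype and 11.73, 12.31, 12.04 and 11.39 on the null arrays. The wildtype range lay within the null range, and the difference was -0.01 (95% confidence interval -0.46 to 0.43, adjusted p = 0.967, limma). With splicing regulators as a covariate it was -1.04 and called (adjusted p = 0.045). Its other probe, ILMN_2893417, differed by -0.13 (adjusted p = 0.482) and was just above background. *Tead2*, a transcription factor gene described as a target of SoxC factors, differed by -0.04 (12.51 ± 0.07 in wildtype and 12.47 ± 0.13 in null, SD, n = 4, adjusted p = 0.748). *Sox12* at ILMN_1227128 gave 11.76 to 12.02 on wildtype and 11.93 to 12.10 on null arrays and differed by 0.12 (95% confidence interval -0.08 to 0.32, adjusted p = 0.308). Under median absolute deviation scaling, which moved the median of all probes from 0.04 to 0.43, it was 0.96 and called (adjusted p = 0.045). At ILMN_3026635 it differed by 0.23 (adjusted p = 0.149). Of its remaining probes ILMN_3099470 was detected on 1 array and ILMN_2775281 on none.

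*Sox11* was measured by 4 probes that are annotated to the same transcript and did not move together. ILMN_1235647 gave 12.93, 12.99, 12.69 and 12.91 on the wildtype and 12.57, 12.30, 12.34 and 12.72 on the null arrays. It was 0.40 lower in null on average (-0.40 ± 0.12, adjusted p = 0.026, limma), although null replicate 4 lay above wildtype replicate 3, and its sign turned with splicing regulators as a covariate (0.17, adjusted p = 0.615). It was 0.49 with median absolute deviation scaling, near the 0.43 by which that scaling set the median of all probes. ILMN_2616196 gave 10.05, 10.04, 9.74 and 10.04 on the wildtype and 10.58, 10.22, 11.00 and 10.38 on the null arrays, with no overlap, and was 0.58 ± 0.17 higher in null (adjusted p = 0.022). ILMN_2643394 (-0.15, adjusted p = 0.372) and ILMN_1251337 (-0.01, adjusted p = 0.973) did not pass the test. Of these 2 calls the first was lost when any of 5 arrays was left out (wildtype replicates 1, 2 and 4 and null replicates 2 and 3, adjusted p up to 0.072) and the second without null replicate 1 (adjusted p = 0.051). The first was also lost with median centring and in the deposited log2 table (-0.28, adjusted p = 0.115, limma, in each). Both were lost with the splicing, *Xist*, epithelial, endothelial or erythroid covariate and in the methods' chain. The 4 probes gave no common direction.

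*Sox7* did not pass the test at either detected probe. ILMN_1234505, annotated to a cDNA clone, gave 5.52 to 5.64 on wildtype and 5.29 to 5.67 on null arrays (difference -0.03, adjusted p = 0.822, limma). ILMN_2889482, annotated to the reference transcript, gave 5.0, 5.93, 5.36 and 4.82 on the wildtype and 5.89, 6.10, 6.39 and 4.57 on the null arrays, and differed by 0.46 ± 0.39 (adjusted p = 0.364). It was above background on wildtype replicates 2 and 3 and on null replicates 1 to 3. Without null replicate 4 it was 0.85 higher in null and called (adjusted p = 0.022). Over the 8 arrays this probe correlated with the endothelial mean at r = 0.98, the closest of all Sox probes tested to that list. ILMN_2653251 was not detected on any array.

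Among 11 other Sox genes 9 had a matched probe and 3 were tested. *Sox13*, a SoxD gene, was lower in null (7.90 ± 0.16 in wildtype and 7.46 ± 0.07 in null, SD, n = 4, difference -0.44, adjusted p = 0.009, limma), with no overlap. *Sox18*, a SoxF gene of endothelium, gave 4.53, 5.53, 5.02 and 4.55 on the wildtype and 6.18, 6.59, 6.90 and 4.47 on the null arrays and differed by 1.13 (adjusted p = 0.090). *Sox21* gave 4.76, 5.39, 4.86 and 4.88 on the wildtype and 5.66, 5.82, 6.78 and 4.87 on the null arrays and differed by 0.81 (adjusted p = 0.086). Both had the pattern of *Sox10* over the null arrays. *Sox17* and *Sox2* were detected on at most 2 arrays, and *Sox1*, *Sox3*, *Sox14* and *Sox30* on none.

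Correlations among the Sox probes over the 8 arrays, given as a description, fell into the same groups. The 2 *Sox9* probes correlated at r = 0.93 and *Sox9* ILMN_2778151 with *Sox6* at r = 0.90. *Sox10* correlated with *Sox5* ILMN_2631143 at r = 0.95 and with *Sox7* ILMN_2889482 at r = 0.81. The arrays share the genotype difference and the cell type markers described above.

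The detected cartilage genes that depend on *Sox9*, *Sox5* and *Sox6* differed in direction, with more called higher than lower in null. Of 22 listed genes 17 had a matched probe and 9 were tested. The mean of these 9 genes, relative to wildtype, was -0.15 to 0.11 on wildtype and 0.56 to 0.80 on null arrays. At their brightest probes 4 were higher in null, 1 was lower and 4 did not pass the test, with a median log2 difference of 0.25, and over all 10766 genes 42.5% were called, 25.7% higher and 16.8% lower, with a median of 0.09. *Col2a1*, the main collagen of cartilage, gave 6.43, 6.92, 6.47 and 6.46 on the wildtype and 8.56, 8.82, 8.39 and 8.64 on the null arrays. The genotypes did not overlap, the difference was 2.03 (adjusted p = 2.6e-05, limma), and its other detected probes were also higher (1.54 and 1.40). *Matn4*, a matrilin, was 2.49 higher in null (4.96 ± 0.37 against 7.46 ± 0.55, SD, n = 4, adjusted p = 3.3e-04), and *Mia*, a secreted protein of chondrocytes, was 0.47 higher (adjusted p = 0.024).

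Collagen IX chains of cartilage did not move together. *Col9a1* was 1.24 higher in null at its brightest probe (adjusted p = 7.3e-04), but its other detected probe differed by -0.15 (adjusted p = 0.560). *Col9a3* was lower by 0.43 (-0.43, adjusted p = 0.026), and *Col9a2* differed by -0.02. *Wwp2*, the host gene of a microRNA that depends on *Sox9*, differed by 0.10 (adjusted p = 0.424). *Acan*, the aggrecan gene, and *Matn1*, *Matn3* and *Comp* were not detected on any array, and *Chad* was not analysed here. The sclerotome genes *Pax1*, *Pax9* and *Uncx*, which mark the source of vertebral cartilage, were not detected either, while the somite gene *Meox1* and the mesenchymal factor *Foxc2* were higher in null by 0.62 and 1.55. The somite gene *Meox2*, detected on no wildtype array and on all 4 null arrays, was at least 2.63-fold higher. It passed the detection filter through its null arrays alone, so only this bound is given.

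**Figure D5:**
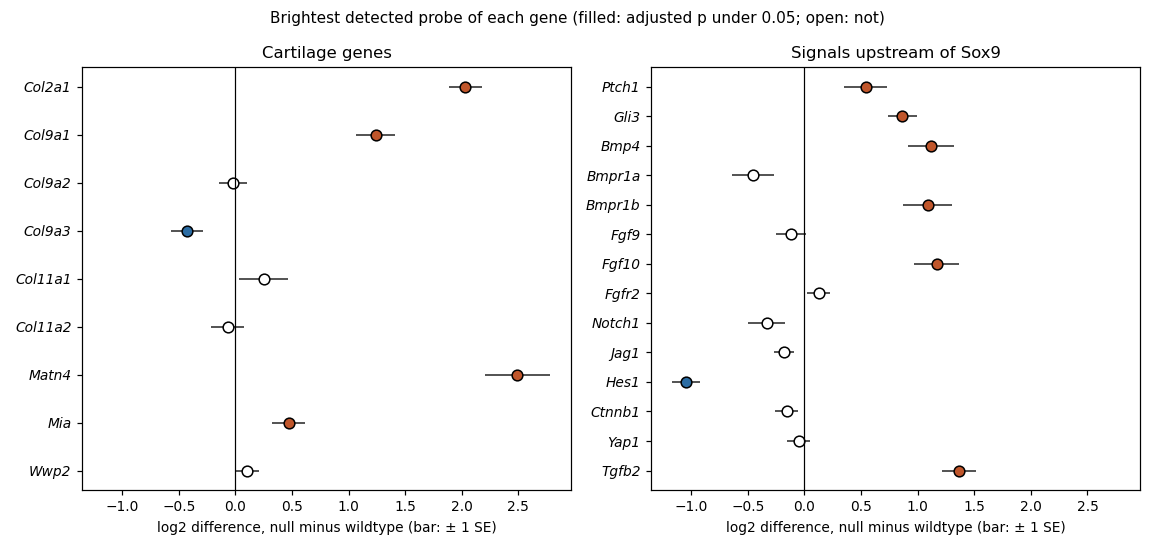
The log2 difference between null and wildtype, with 1 standard error to each side, is plotted for the brightest detected probe of 9 cartilage genes (left) and of 14 genes of signals upstream of *Sox9* (right), filled where the adjusted p was under 0.05. *Matn4* (2.49) and *Col2a1* (2.03) were the highest of the cartilage genes, and *Hes1* (-1.05) was the lowest of the signal genes.

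Genes of the signals known to set *Sox9* levels, namely Hedgehog, BMP, TGF-beta, FGF, Notch, Wnt and Hippo signals, were called about as often as genes at large. Of 20 listed genes 14 were tested, and 6 were higher in null, 1 was lower and 7 did not pass the test, with a median log2 difference of 0.04, where 42.5% of all genes were called, 25.7% higher and 16.8% lower. At the brightest probes *Hes1*, the Notch effector, was the gene called lower along with *Sox9*. It gave 9.61, 9.50, 9.31 and 9.60 on the wildtype and 8.33, 8.48, 8.34 and 8.67 on the null arrays. The genotypes did not overlap, and the difference was -1.05 (adjusted p = 2.8e-04, limma). The Notch receptor *Notch1* (-0.33, adjusted p = 0.113) and its ligand *Jag1* (-0.18, adjusted p = 0.088) did not pass the test.

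At their brightest probes the ligand and receptor genes that passed the test were all higher in null. *Tgfb2* was 1.36 higher in null (adjusted p = 2.2e-04), the mesenchymal ligand *Fgf10* 1.17 (adjusted p = 0.002, with 1.10 and 0.80 at its other detected probes), *Bmp4* 1.12 (adjusted p = 0.003) and the BMP receptor gene *Bmpr1b* 1.09 (adjusted p = 0.004). The Hedgehog genes *Gli3*, a transcriptional effector, and *Ptch1*, the receptor and a target of the pathway, were 0.86 (adjusted p = 0.001) and 0.54 (adjusted p = 0.037) higher. The other *Ptch1* probe differed by 0.09 (adjusted p = 0.449), and *Gli1*, another Hedgehog target, was not detected on any array. *Ctnnb1*, the Wnt effector, and *Yap1*, the Hippo effector, differed by -0.16 and -0.05 at their brightest probes and did not pass the test there. Other probes did pass for *Ctnnb1* (-0.63, adjusted p = 0.017), for the BMP receptor gene *Bmpr1a* (-1.82, adjusted p = 0.017) and, in opposite directions, for the FGF receptor gene *Fgfr2* (-0.68, adjusted p = 0.036, and 0.51, adjusted p = 0.019), so the counts above rest on the choice of probe.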

How the data were processed

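RNA of 4 wildtype and 4 null samples of sorted cells was amplified, biotin labelled and hybridized to 1 array each. The number of embryos behind a sample is not given in the sources used here, so the p-values measure the spread between these samples. The authors deposited intensity values per probe from GenomeStudio, with the background subtracted and no normalization between arrays. The detection p-value columns were deposited by the authors beside them as 1 minus p and were turned. The deposited log2 values of the second table are centred per array and per probe, with a baseline that is not stated, and served as an alternative. No slide or scan data were used. Signals, listed by bead address, were joined to probe names by their profile over the 8 arrays. Of 45281 probes 34536 matched 1 name, among them all 19841 tested and all 29 Sox probes.

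Signals were processed by neqc in limma 3.58.1 with statmod 1.5.0 (R 4.3.3): a normexp background correction whose control parameters came from the detection p, an offset of 16, quantile normalization and log2. The offset shrinks differences of dim probes. A probe was kept if its detection p was below 0.05 on 4 or more of the 8 arrays. The genotypes were compared per probe (lmFit, eBayes, genotype as the single factor), two-sided, with Benjamini-Hochberg adjustment over 19841 probes and a threshold of 0.05. The fit was tested on simulated data. Probes of 1 gene were kept apart, and listed genes were read at their brightest kept probe. "At least" folds use, for an undetected value, the floor of detected signals on that array.

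All probes of the 9 genes are named, with up to 4 genes of each pathway list by the largest absolute moderated t, *Col2a1*, *Acan*, *Wwp2*, *Chad*, *Tead2*, *Ptch1*, *Gli1*, *Sox17* and *Sox18* whatever their values, and the 5 genes most and least like *Sox9*. Other list genes named were chosen after their values were seen. Members and lists were chosen with earlier results of these data known. Alternatives were another offset, no normexp, median centring or median absolute deviation scaling, the deposited log2 table, 3 filters, 1 probe per gene, a replicate block, each array left out, splicing regulators or *Xist* as a covariate, and the methods' chain (median absolute deviation scaling, a 20th percentile filter and ANOVA). Covariates of epithelial, endothelial and erythroid markers and the removal of 3 arrays were added after seeing the data. Protein and probe sequences were not used here.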

Additional observations from a re-analysis of the deposited data

Results flagged for a closer look

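In 3 of 58 sets of 4 arrays of 1 genotype, 1 for each Sox probe and genotype, a single array lay far from the other three. Chance flags about 1 in 20 such sets. At *Sox11* ILMN_2616196 wildtype replicate 3 was at 9.74 and the others at 10.04 to 10.05, so that the gap took 0.967 of the range. At *Sox5* ILMN_2610223, which was not detected on any array, wildtype replicate 3 was at 4.84 and the others at 4.53 to 4.57 (0.869 of the range). At *Sox12* ILMN_3026635 wildtype replicate 4 was at 8.81 and the others at 9.09 to 9.14 (0.856 of the range).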

How the results depend on the processing

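Both *Sox9* probes and the *Sox6* probe stayed lower in null under every alternative that could be fitted, and the calls lost were those given above with *Xist* as a covariate and in the methods' chain. The sign of *Sox11* ILMN_1235647 turned after adding the splicing regulators to the fit (0.17) and with median absolute deviation scaling (0.49, a value the methods' chain shares because it starts from the same scaled values), and that of *Sox10* with the splicing regulators (-0.10) and with the epithelial markers (-0.47) as a covariate. Against 8312 probes called, of which 8 were Sox probes (4 lower and 4 higher), 1 probe per gene gave 4819 genes and 4 Sox genes (1 higher), the splicing covariate 959 and 4 (0 higher, both *Sox9* probes, *Sox6* and *Sox4* ILMN_2727116, which was not called otherwise and became -1.04), the *Xist* covariate 304 and 1 (1 lower, 0 higher), the methods' chain 1353 and 1 (1 lower, 0 higher, in both cases *Sox9* ILMN_3007428), the epithelial covariate 1681 and 3 (0 higher), and the erythroid covariate 5793 and 5 (2 higher). Where 0 were higher, the number at an unadjusted p under 0.05 was 0 with the splicing and *Xist* covariates and 2 with the epithelial covariate (limma), and 6 in the methods' chain (ANOVA). The marker covariates were chosen after seeing the data. The splicing mean, *Xist* and the epithelial mean each lay apart between the genotypes without overlap. Fits with any of them as a covariate therefore cannot divide a difference by genotype from one that goes with the covariate. Leaving out 1 array gave 5718 to 9890 probes called, 6 to 10 Sox probes, 3 to 4 lower and 3 to 6 higher. The change of *Sox9* minus *Sox8* and *Sox7* became -1.11 (adjusted p = 0.0762, exact permutation test) and -0.94 (adjusted p = 0.0980) with median absolute deviation scaling. That scaling moved the median difference of all probes from 0.04 to 0.43 and the share of called probes that were lower from 48.5 to 23.7%, and the methods' chain moved them to 0.24 and 28.5%.

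The labels number the replicates without saying that equal numbers were paired, and the main fit did not treat them as pairs. Deviations of arrays with the same replicate number from their group means correlated at 0.168, 0.069, 0.377 and 0.408, which does not settle whether they were. With the replicate number as a block 8847 probes were called, against 8312 without it, and no call of the 20 Sox probes changed. Without the 3 arrays lowest on splicing regulators (wildtype replicate 3, null replicates 2 and 3) *Sox10* differed by 1.34 (adjusted p = 0.169, limma), and 7 Sox probes were called. The 9 Sox probes under the detection filter have signals too near background for a difference to be read.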
